A study of Mus musculus with 32 samples.

Results

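The genes described here make or use glycerol phosphate, the backbone on which fat cells build triglycerides. They were Gk, glycerol kinase, which the study calls Gyk, Aqp7, an aquaglyceroporin of the plasma membrane, Gpd1 and Gpd2, the cytosolic and mitochondrial glycerol phosphate dehydrogenases, and Pck1, the cytosolic phosphoenolpyruvate carboxykinase. They were chosen by name and not by a rule on their measured values, though with earlier results of these data known. All probes of one-colour Agilent microarrays whose transcript identifier leads to these mouse symbols were taken, which gave 5 probes, 1 per gene, of 39429 probes in all, for 5 of 20659 named genes. A gene measured by a single probe has no check from another probe here. All 5 probes were called well above background on all 32 arrays, so none was lost to the filter on dim probes, and none was saturated. Levels are log2 intensities with the array's own 75th percentile subtracted, so that 0 is the intensity below which 75 percent of the noncontrol spots of that array lie. Levels of different probes were not compared with each other.

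The 32 samples came from C57Bl/6 mice or cells, 4 arrays in each of 8 groups. In culture there were Pparg knockdown cultures and their Pparg control cultures, and Gyk knockdown cultures and their Gyk control cultures, all labelled room temperature. From mice there were samples labelled Pparg knockout and Pparg control after cold exposure, and samples labelled Pparg knockout and Pparg control at room temperature. Every sample, from culture or mouse, is labelled as preadipocytes. The labels used here do not give how the knockdown or knockout was made, which part of Pparg was removed, in which cells, the length of the cold exposure or the age of the mice, nor whether the 4 samples of a group were separate cultures or animals. The p-values therefore cover the variation among these arrays, part or all of which may be technical. The series title names its subject as the way Pparg acts on mature brown adipocytes through glycerol kinase.

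Fat cells need glycerol phosphate to join fatty acids into triglycerides, and they have several routes to it. Glycerol kinase phosphorylates free glycerol, which passes the plasma membrane through aquaglyceroporins such as Aqp7, and white fat is known for little of this enzyme while brown fat has more. Gpd1 reduces dihydroxyacetone phosphate from glycolysis to glycerol phosphate, and Gpd2 in the inner mitochondrial membrane oxidises it back and passes the electrons to the respiratory chain, so that the pair forms a shuttle that brown fat holds in large amounts. Pck1 feeds glyceroneogenesis, which makes glycerol phosphate from pyruvate or lactate. Pparg encodes a nuclear receptor needed for fat cells to form, and Pck1, Aqp7 and Gk are known as its target genes in fat cells.

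The windows of 250 bases before the transcript start are shown for 4 of the 5 genes, because the genes moved together in several comparisons below. The sequences are RefSeq's, on GRCm38.p6, and are given 5′ to 3′ in the direction of the gene, with capitals for the motif matches listed after them. The windows end at the start site. Gpd1 was not matched in this sequence table.
Gk, chrX:85776820-85777069, minus strand: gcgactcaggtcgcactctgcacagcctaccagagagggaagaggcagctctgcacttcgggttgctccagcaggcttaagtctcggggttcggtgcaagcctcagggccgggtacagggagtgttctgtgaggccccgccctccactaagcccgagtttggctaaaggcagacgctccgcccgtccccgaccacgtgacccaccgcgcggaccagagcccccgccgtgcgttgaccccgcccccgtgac
Aqp7, chr4:41047963-41048212, minus strand: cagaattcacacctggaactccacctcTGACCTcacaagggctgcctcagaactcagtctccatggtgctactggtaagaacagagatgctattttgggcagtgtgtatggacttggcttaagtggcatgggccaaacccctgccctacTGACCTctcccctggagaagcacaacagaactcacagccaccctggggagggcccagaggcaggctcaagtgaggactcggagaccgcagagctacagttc
Gpd2, chr2:57237428-57237677, plus strand: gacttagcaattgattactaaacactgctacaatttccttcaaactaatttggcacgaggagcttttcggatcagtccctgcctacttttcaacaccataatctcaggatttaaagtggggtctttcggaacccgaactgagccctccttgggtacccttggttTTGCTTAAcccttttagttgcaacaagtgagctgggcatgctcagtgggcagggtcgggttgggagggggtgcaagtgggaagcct
Pck1, chr2:173152823-173153072, plus strand: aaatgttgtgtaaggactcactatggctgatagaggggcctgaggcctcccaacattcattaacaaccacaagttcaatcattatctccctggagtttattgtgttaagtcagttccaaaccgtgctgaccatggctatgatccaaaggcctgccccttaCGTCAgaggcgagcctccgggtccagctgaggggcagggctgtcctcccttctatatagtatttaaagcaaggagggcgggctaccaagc
Both strands were searched for 6 motifs. These were the hexamer AGGTCA that nuclear receptors bind, and the direct repeat of a looser form of it with a single base between, which the PPAR and RXR pair binds. They were also the cyclic AMP response element, TGACGTCA, and its core TGACG, which lies inside the longer form as well. The others were the C/EBP core, TTGCNNAA, and the TATA box, TATAAA. Aqp7, on chromosome 4, held AGGTCA on the opposite strand at positions −223 and −101 before the start. Its other RefSeq window overlaps this one, and its single match, at position −49, is the same stretch. Among all 32851 promoter windows of this length, 14% held AGGTCA. Pck1, on chromosome 2, held TGACG on the opposite strand from position −90, a core that 17.8% of all windows held. Gpd2, also on chromosome 2, held the C/EBP core TTGCTTAA at position −86 in 1 of its 2 windows, and 9.56% of all windows held that motif. Gk, on chromosome X, held none of the 6 motifs in this window, nor did any of the 4 genes hold the direct repeat, which 0.338% of all windows held, the full cyclic AMP element (1.55%) or the TATA box (12.4%). A match is a description of the letters, and the absence of one covers only these letters in this window.

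Several facts of the whole series touch the results. The Pparg probe was read first, since Pparg was the gene targeted in 3 of the 4 experiments. Its level averaged 4.24 ± 0.157 in Pparg knockdown cultures and 6.15 ± 0.197 in Pparg control cultures (SD, n = 4 each), and it was lower by 1.91 in the knockdown. In mice it went against the label. It averaged 7.96 ± 0.0705 in samples labelled Pparg knockout and 5.84 ± 0.479 in controls in the cold, and 7.46 ± 0.0712 in samples labelled Pparg knockout and 5.39 ± 0.13 in controls at room temperature (SD, n = 4 each). The single Pparg probe may lie outside the removed part, which the labels do not give, and it would then check nothing, so every direction below in mice is that of the samples labelled Pparg knockout. Each of the 4 experiments lay on 2 slides scanned on 1 day, and each slide held 2 arrays of either group. Across arrays, the 75th percentile of intensity lay between 141.3 and 806.3, and it was lowest on Gyk knockdown arrays 3 and 4 (141.3 and 245.5). At room temperature it split by genotype, with 498.5 to 603.7 on arrays labelled Pparg knockout and 292.7 to 406.2 on controls. The unscaled Gk intensities overlapped there, at 2050 to 3820 in samples labelled Pparg knockout and 2510 to 3350 in controls. Those of Gpd2 overlapped too, at 10600 to 14800 and 8690 to 14300 in the same order. The part of this split in the room temperature differences was not tested.

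Adipocyte markers were strong in every group, although the labels say preadipocytes. The summed linear level of 8 mature adipocyte markers (Adipoq, Plin1, Cidec, Fabp4, Lep, Retn, Cfd and Pparg itself), in units of each array's 75th percentile, lay between 322 and 427 in Pparg knockdown cultures and between 932 and 1180 in Pparg control cultures. All 8 of these markers fell with the Pparg knockdown. The sum lay between 1130 and 1540 in Gyk knockdown cultures and between 1210 and 1380 in Gyk control cultures, where 2 of the 8 fell. In mice it lay between 1230 and 1790 in samples labelled Pparg knockout and between 1920 and 2480 in controls in the cold, and between 856 and 932 in samples labelled Pparg knockout and between 1450 and 1760 in controls at room temperature. Brown adipocyte markers (7 genes with Ucp1) summed to 153 to 200 in Pparg knockdown cultures and 468 to 610 in their controls, and to 241 to 356 in Gyk knockdown cultures and 498 to 579 in their controls. They summed to 734 to 1510 in mice labelled Pparg knockout and 2340 to 2520 in control mice in the cold, and to 1230 to 1490 in mice labelled Pparg knockout and 2780 to 3860 in control mice at room temperature. All these sums kept spots flagged as outlying. Among them were the Ucp1 spots of Gyk control cultures 1 and 2, at 5.86 and 6.01, against 7.53 and 7.25 in cultures 3 and 4. These sums were lower in every group labelled knockdown or knockout than in its control, apart from the overlapping mature adipocyte sums of the Gyk experiment. Single markers varied more. In mice labelled Pparg knockout, 4 of 8 mature adipocyte markers fell in the cold and 5 of 8 at room temperature, while Pparg itself rose at both. Brown adipocyte markers fell for 4 of 7 in the cold, and for 5 of 7 at room temperature, where 1 rose. Of all genes tested, 18.3% were called lower in the cold and 25% at room temperature. Fewer cells of a type and less RNA per cell cannot be told apart in such bulk samples. The part of these shifts in the results on the 5 genes was not tested.

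Gk, the enzyme that phosphorylates glycerol, was lower in both knockdown experiments in culture. In Pparg knockdown cultures 1 to 4 its level was −0.63, −0.70, −0.30 and −0.61, against 0.76, 0.85, 0.99 and 0.93 in Pparg control cultures. All 4 knockdown arrays lay below all 4 controls. Gk fell 2.72-fold (log2 −1.44, SE 0.105, limma adjusted p = 1.78e-05), by 1.47 within the first slide and by 1.41 within the other. The exact permutation test gave p = 0.0286, the smallest that the 70 orders of 4 against 4 arrays allow.

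The Gyk knockdown targeted Gk, so this probe checks that label. Gyk knockdown cultures 1 to 4 had levels of −2.61, −3.00, −1.40 and −1.19, and Gyk control cultures had 0.40, 0.38, 0.22 and 0.39. The groups did not overlap, and the knockdown arrays fell into a lower pair on the first slide and a higher pair on the other. Gk fell 5.26-fold (log2 −2.40, SE 0.391, limma adjusted p = 0.0118; exact permutation p = 0.0286), and only 4 of 12219 genes tested fell further. With the replicate number as a block, though these numbers did not pair the arrays of this experiment, the same −2.40 had limma adjusted p = 0.053 and did not pass. The difference was −3.19 on the first slide and −1.60 on the other. The higher pair are knockdown arrays 3 and 4, which had the lowest intensities of the series, and without them Gk was lower by 3.15 (adjusted p = 0.00294). Whether the low intensity plays a part in the difference between slides was not tested.

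In the cold, Gk split by slide more than by genotype. Samples labelled Pparg knockout had levels of 0.89 and 0.78 on the first slide and −1.03 and −1.13 on the other, and control samples had 2.02 and 1.56 on the first slide and −0.18 and 0.03 on the other. Both groups thus stood higher on the first slide, by 1.92 in samples labelled Pparg knockout and by 1.86 in controls, and on either slide both arrays labelled knockout lay below both controls. The difference between the groups was −0.98 (SE 0.647, 95% interval −2.45 to 0.49) and did not pass the test in limma (adjusted p = 0.279; exact permutation p = 0.257). Within the slides it was −0.96 and −1.01, and with slide as a block in the fit it was −0.98 with adjusted p = 0.00102. A mean slide difference of 1.89, as large as that of Gk, was reached by 0.778% of the genes in this experiment, whose median absolute slide difference was 0.23. What the slides differ in beside their place on the scanner is not given in the labels, and the cause was not tested.

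**Figure D1:**
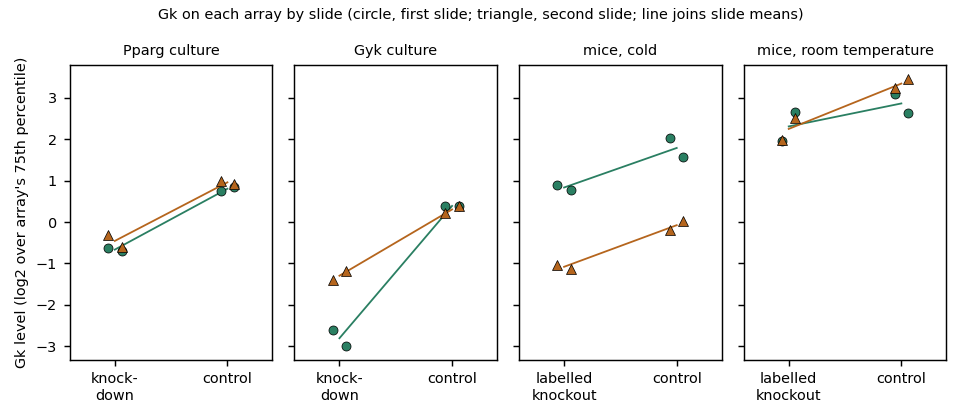
Gk levels on each array (vertical axis, log2 over the array's 75th percentile) in the 4 experiments, with the knockdown or labelled knockout left of its control; circles and triangles are the 2 slides of an experiment and each line joins the means of a slide. In the cold the lines run in parallel 1.89 apart, and in the Gyk culture experiment the slides differ by 1.51 on the knockdown side and by 0.09 in the controls.

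Skeletal muscle markers (Acta1, Ckm, Myh4, Tnnt3, Myl1 and Tnnc2) also varied between the mouse arrays. Their summed linear level was 240 and 318 on cold control arrays 1 and 2, 44.1 on cold array 4 labelled Pparg knockout and 42.7 on room temperature array 1 labelled Pparg knockout, and between 4.76 and 23.8 on the other mouse arrays. Cold control arrays 1 and 2 are those with the higher Gk level among controls, and the arrays labelled Pparg knockout on the same slide had muscle sums of 8.76 and 8.90. Among the cold arrays, those of high muscle marker level were control arrays 1 and 2 and array 4 labelled Pparg knockout. Without them the Gk difference in the cold was 0.28 (SE 0.572, limma adjusted p = 0.759), and both remaining controls lie on the second slide. With slide as a block as well it was −0.96. That value sets array 3 labelled Pparg knockout alone against control arrays 3 and 4, since no control was left on the first slide. Leaving out these arrays was an alternative chosen after seeing the data. The summed hepatocyte markers (Alb, Apoa1, Ttr, Serpina1a and Cyp2e1) also split by slide in the cold. They stood at 13.8 and 12.3 on the first slide and 4.89 and 8.43 on the other in samples labelled Pparg knockout, and at 15.8 and 45.5 on the first slide and 2.40 and 2.15 on the other in controls. Alb, Apoa1 and Ttr were not well above background on any cold array. The part of the muscle and hepatocyte markers in the Gk levels was not tested.

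At room temperature Gk was lower in the samples labelled Pparg knockout. Their levels were 1.98, 2.52, 1.96 and 2.66 on arrays 1 to 4, against 3.1, 2.63, 3.23 and 3.46 in controls. The ranges overlapped, since 1 array labelled knockout, at 2.66, lay just above the lowest control at 2.63. Gk fell 1.77-fold (log2 −0.82, SE 0.222, limma adjusted p = 0.017), while the exact permutation test gave p = 0.0571. This was a modest shift among the genes of the comparison, where 25% were called lower. With all 32 arrays in 1 fit the same difference gave adjusted p = 0.176, and without array 1, the one of high muscle marker level, it was −0.72 (adjusted p = 0.0454).

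Aqp7, the channel through which fat cells exchange glycerol, separated the groups of every experiment. Its level in Pparg knockdown cultures 1 to 4 was −0.42, −0.51, −0.45 and −0.26, against 0.93, 0.94, 0.99 and 0.83 in Pparg control cultures. In mice in the cold it was −0.96, −1.24, −0.96 and −1.04 in samples labelled Pparg knockout, against 0.67, 0.90, 0.93 and 0.60 in controls. At room temperature it was −1.27, −1.07, −1.25 and −1.52 in samples labelled Pparg knockout, against 0.82, 0.55, 0.75 and 0.56 in controls. Every array of a lower group lay well below every array of its control. Aqp7 fell 2.52-fold with the Pparg knockdown (log2 −1.33, SE 0.0804, limma adjusted p = 6.76e-06), 3.54-fold in samples labelled Pparg knockout in the cold (log2 −1.82, SE 0.129, adjusted p = 8.28e-05) and 3.86-fold at room temperature (log2 −1.95, SE 0.115, adjusted p = 1.37e-05). In the Gyk experiment Aqp7 had levels of 1.29, 1.59, 0.87 and 1.28 in knockdown cultures, against 1.91, 1.62, 1.81 and 1.95 in control cultures. The ranges did not overlap, by a margin of hundredths between knockdown array 2 and control array 2. The difference of −0.57 (SE 0.166, 95% interval −0.95 to −0.18) missed the threshold in limma (adjusted p = 0.0744). It was −0.32 on the first slide and −0.81 on the other, which held the knockdown arrays of lowest intensity.

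Gpd1, which makes glycerol phosphate from dihydroxyacetone phosphate in the cytosol, behaved much as Aqp7 did. Its levels were 6.40, 6.44, 6.85 and 6.70 in Pparg knockdown cultures, against 8.44, 8.53 and 8.67 in Pparg control cultures 2 to 4. The spot of control culture 1 was flagged as not uniform by the scanner software and left out. Gpd1 fell 3.86-fold (log2 −1.95, SE 0.134, limma adjusted p = 3.14e-05, 4 arrays against 3). In mice in the cold it was 8.59, 8.84, 8.17 and 8.25 in samples labelled Pparg knockout, against 9.91, 9.63, 9.82 and 9.72 in controls. At room temperature it was 8.52, 8.42, 8.39 and 8.18 in samples labelled Pparg knockout, against 10.15, 9.90, 10.04 and 10.17 in controls. The groups stood apart at both temperatures. The fall was 2.48-fold in the cold (log2 −1.31, SE 0.167, limma adjusted p = 0.00106) and 3.22-fold at room temperature (log2 −1.69, SE 0.101, adjusted p = 1.47e-05). In the Gyk experiment Gpd1 was 7.90, 7.95, 8.28 and 7.70 in knockdown cultures, against 8.35, 8.33, 8.38 and 8.34 in control cultures. The controls lay within a narrow band just above the knockdown arrays, and the difference of −0.39 (SE 0.134) did not pass the test in limma (adjusted p = 0.107).

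Gpd2, the mitochondrial partner of the shuttle, fell in the same 3 Pparg comparisons. Its levels were 1.87, 2.09, 2.48 and 2.39 in Pparg knockdown cultures, against 3.02, 3.02, 3.72 and 3.68 in Pparg control cultures. Both groups were higher on the second slide, and they did not overlap. Gpd2 fell 2.22-fold (log2 −1.15, SE 0.213, limma adjusted p = 0.00324). In the cold it was 3.62, 3.39, 3.29 and 2.52 in samples labelled Pparg knockout, against 5.15, 4.47, 4.70 and 4.64 in controls, a 2.89-fold fall (log2 −1.53, SE 0.249, limma adjusted p = 0.00284). At room temperature it was 4.71, 4.41, 4.62 and 4.26 in samples labelled Pparg knockout, against 5.30, 5.14, 5.20 and 4.89 in controls, a 1.55-fold fall (log2 −0.63, SE 0.129, limma adjusted p = 0.00478). No array of either group crossed into the other at either temperature in these scaled levels. In the Gyk experiment Gpd2 was 2.81, 2.88, 2.30 and 2.31 in knockdown cultures, against 3.08, 3.08, 3.27 and 3.02 in control cultures. The difference of −0.54 (SE 0.166) did not pass the test in limma (adjusted p = 0.0841). It was −0.24 on the first slide and −0.84 on the other, which held the knockdown arrays of lowest intensity.

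Pck1, the enzyme that feeds glyceroneogenesis, was lower in all 3 Pparg comparisons, by 2.83 to 3.77 on the log2 scale. Its levels were −0.09, 0.05, 0.32 and 0.21 in Pparg knockdown cultures, against 3.62, 3.71, 3.97 and 3.92 in Pparg control cultures. The difference of −3.68 (SE 0.12, limma adjusted p = 4.05e-07) was the same within either slide, and only 3 of 12843 genes tested fell further. In mice in the cold Pck1 was 6.21, 5.05, 4.64 and 5.23 in samples labelled Pparg knockout, against 8.25, 8.52, 7.90 and 7.76 in controls, a 7.10-fold fall (log2 −2.83, SE 0.323, limma adjusted p = 0.000615). At room temperature it was 2.02, 3.13, 3.11 and 2.34 in samples labelled Pparg knockout, against 6.40, 5.45, 6.38 and 7.44 in controls. It fell 13.6-fold there (log2 −3.77, SE 0.422, limma adjusted p = 0.000246), and 18 of 13232 genes, Pck1 included, fell at least as far. The groups did not overlap in any of these comparisons. In the Gyk experiment Pck1 was 3.26, 3.33, 2.08 and 2.38 in knockdown cultures, against 4.07, 3.83, 3.75 and 3.63 in control cultures, again without overlap. The difference of −1.06 (SE 0.291, 95% interval −1.73 to −0.39) did not pass the test in limma (adjusted p = 0.0615), and it was −0.66 on the first slide and −1.46 on the other. Without Gyk knockdown arrays 3 and 4, the arrays of lowest intensity, it was −0.53 (adjusted p = 0.0637).

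**Figure D2:**
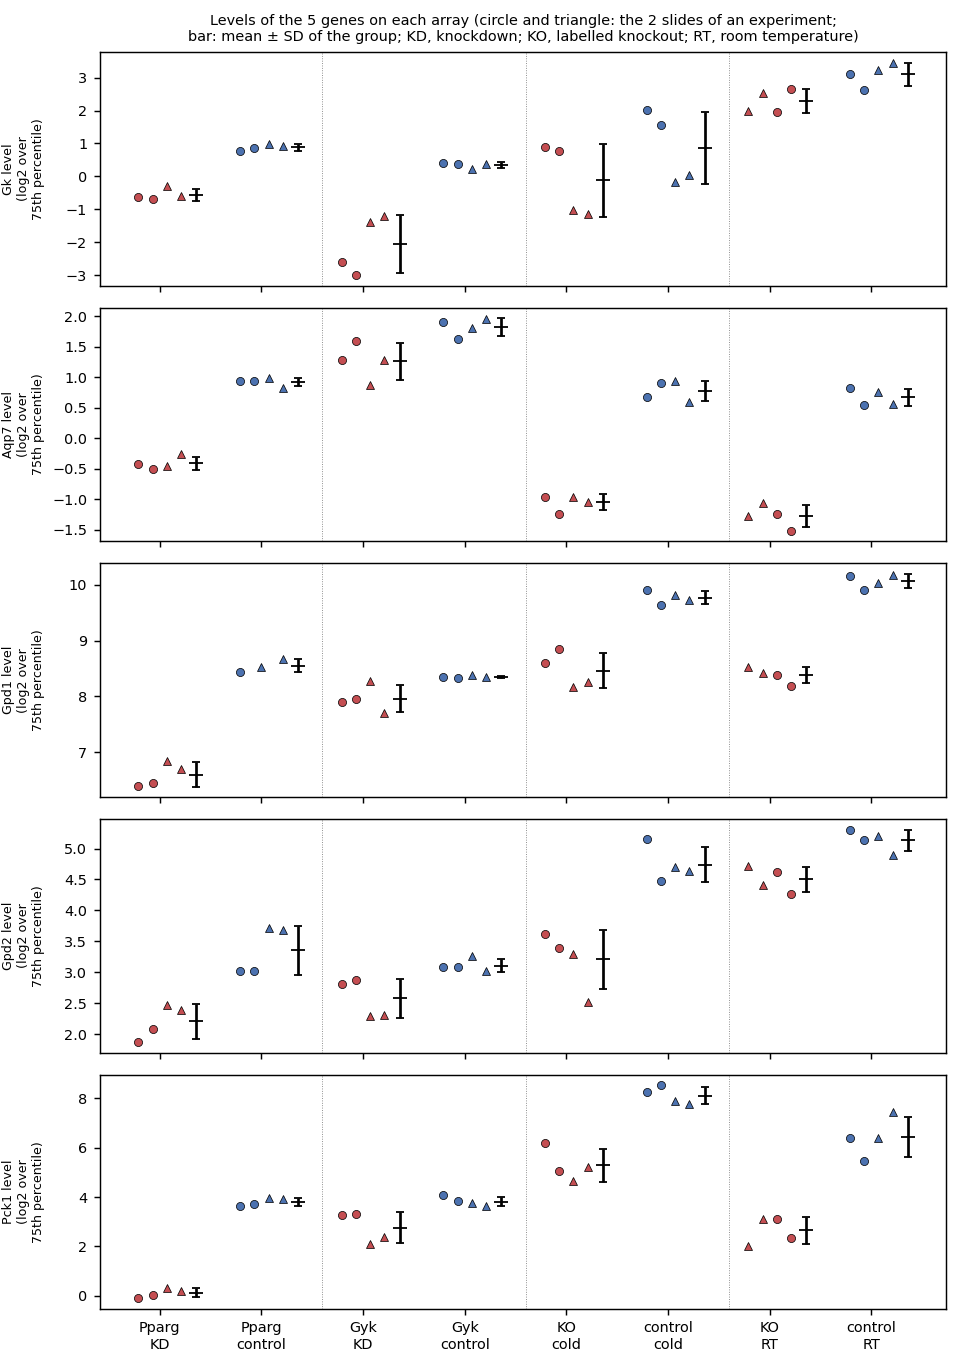
Level of each gene on each array (vertical axes, log2 over the array's 75th percentile, own scale per gene) in the 8 groups, with the knockdown (KD) or labelled knockout (KO) left of its control; circles and triangles are the 2 slides of an experiment and bars give the mean ± SD. Knockdown and labelled knockout arrays lie below their controls throughout, apart from Gk in mice, and Gk in the cold spreads from −1.13 to 0.89 in samples labelled Pparg knockout and from −0.18 to 2.02 in controls.

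Counted together, all 5 genes fell with the Pparg knockdown, where 16% of 12843 genes tested were called lower. In samples labelled Pparg knockout 4 of the 5, all but Gk, fell in the cold (18.3% of 12982 genes called lower), and all 5 fell at room temperature (25% of 13232 genes called lower). In the Gyk knockdown 1 of the 5 fell, Gk itself, with 4.11% of 12219 genes called lower, a call that the replicate block ended. The median difference over the 5 was −1.44 with the Pparg knockdown, −0.57 with the Gyk knockdown, −1.53 in samples labelled Pparg knockout in the cold and −1.69 at room temperature. Over all genes the median was 0.025 with the Pparg knockdown, 0.019 with the Gyk knockdown, −0.054 in samples labelled Pparg knockout in the cold and −0.047 at room temperature. The knockdown arrays lay below all controls without overlap for all 5 genes in the Pparg experiment (17.1% of genes tested) and for all 5 in the Gyk experiment (10.9%). In mice this held for 4 of the 5, all but Gk, in the cold (20.4%) and at room temperature (24%). For each of the 4 genes beside Gk in the Gyk experiment the exact permutation test gave p = 0.0286, the smallest it can give.

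**Figure D3:**
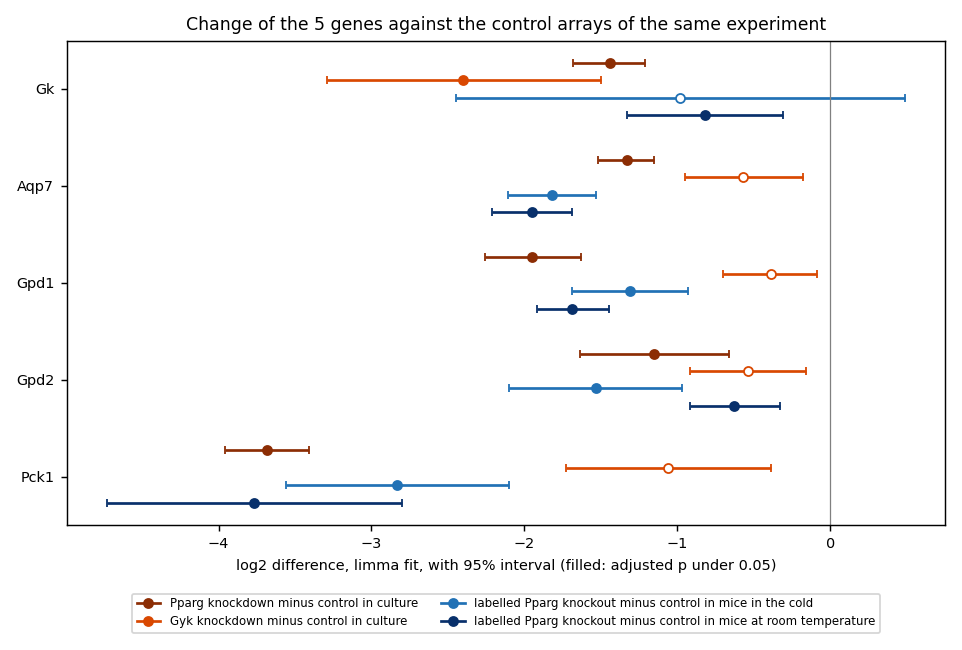
Difference of each gene from the controls of its experiment (horizontal axis, log2, with the 95% interval of the limma fit), 4 comparisons per gene; filled points passed an adjusted p of 0.05. All points lie left of 0, those of the Gyk knockdown are open for the 4 genes beside Gk, and the interval of Gk in the cold, −2.45 to 0.49, spans 0.

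The effects of both knockdowns were compared with each other over all 16 culture arrays. The Pparg knockdown lowered Pck1 further than the Gyk knockdown by 2.62 (SE 0.331, limma adjusted p = 8.17e-05), Gpd1 by 1.55 (SE 0.194, adjusted p = 0.000106) and Aqp7 by 0.77 (SE 0.187, adjusted p = 0.0133). In that test 6.14% of 13118 genes were called in the same direction. Gpd2 differed by −0.61 (SE 0.284, adjusted p = 0.193) and Gk by 0.95 (SE 0.428, adjusted p = 0.177), with neither past the threshold. Without Gyk knockdown arrays 3 and 4 the Gk difference was 1.71 (SE 0.173, limma adjusted p = 3.3e-05). These arrays had the lowest intensities and were also the whole knockdown side of the second slide of the Gyk experiment. Without array 4 alone the Gk difference was 1.24 (adjusted p = 0.0407), the only one of 16 fits with a single array left out that passed. The part of intensity or slide in this was not tested. The 2 experiments were run on different slides and days, but either effect was measured within its own slides.

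Across temperature, Gk and Pck1 went opposite ways. Gk averaged −0.12 ± 1.11 in the cold and 2.28 ± 0.362 at room temperature in mice labelled Pparg knockout, and 0.86 ± 1.1 in the cold and 3.1 ± 0.35 at room temperature in control mice (SD, n = 4 each). It was lower in the cold by 2.40 in mice labelled Pparg knockout (SE 0.532, limma adjusted p = 0.00108) and by 2.24 in controls (SE 0.532, adjusted p = 0.0018). The fit had no slide term and took the 4 arrays of a group as independent, while each temperature lay on 2 slides. Gk differed by 1.89 between the slides in the cold, so these SEs and p-values overstate the replication. The second slide of the cold experiment held the lower Gk levels, and even the first slide's control levels of 2.02 and 1.56 lay below the room temperature controls. Without the arrays of high muscle marker level, an alternative chosen after seeing the data, the difference in controls was −3.17 (limma adjusted p = 0.00017). The cold controls left in that fit were arrays 3 and 4, both on the second slide, so muscle marker level and slide cannot be told apart there. Pck1 averaged 5.28 ± 0.667 in the cold and 2.65 ± 0.556 at room temperature in mice labelled Pparg knockout, and 8.11 ± 0.345 in the cold and 6.42 ± 0.813 at room temperature in controls (SD, n = 4 each). It was higher in the cold by 2.63 in mice labelled Pparg knockout (SE 0.404, limma adjusted p = 4.61e-05) and by 1.69 in controls (SE 0.404, adjusted p = 0.0019).

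For the shuttle and the channel 1 of 6 temperature differences passed the test. Gpd2 was lower in the cold by 1.30 in mice labelled Pparg knockout (SE 0.209, limma adjusted p = 7.34e-05), and its difference of −0.39 in controls (SE 0.209) did not pass (adjusted p = 0.111). Gpd1 differed by 0.08 in mice labelled Pparg knockout (SE 0.139, limma adjusted p = 0.627) and by −0.30 in controls (SE 0.139, adjusted p = 0.0734). Aqp7 differed by 0.23 in mice labelled Pparg knockout (SE 0.118, limma adjusted p = 0.102) and by 0.10 in controls (SE 0.118, adjusted p = 0.46). The signs of the small Gpd1 difference in mice labelled Pparg knockout and of Aqp7 in controls turned under other scalings. Of the 5 genes, 2 were called lower and 1 higher in mice labelled Pparg knockout, where 24.6% of 14065 genes were called lower and 40.9% higher. In controls 1 was called lower and 1 higher, beside 25.1% and 41.6% of the same genes. The median over all genes was higher in the cold by 0.233 in mice labelled Pparg knockout and by 0.231 in controls, so a gene with no difference here lay slightly below the bulk of genes. Both comparisons draw on arrays that also served in the genotype comparisons, and temperature lay with slide and scan day, so cold and batch cannot be told apart. Skeletal muscle markers moved with temperature in controls too, with 5 of 6 called higher in the cold, while in mice labelled Pparg knockout none of the 6 passed the test. Hepatocyte markers fell in the cold for 2 of 4 tested in mice labelled Pparg knockout (median −2.19) and for 3 of 4 in controls (median −3.41). Of 8 mature adipocyte markers, 4 rose and 1 fell in mice labelled Pparg knockout, and 5 rose and 1 fell in controls, while brown adipocyte markers fell for 4 of 7 in mice labelled Pparg knockout and for 3 of 7 in controls. Ucp1, among those that fell, was lower by 1.03 in mice labelled Pparg knockout (SE 0.24, limma adjusted p = 0.00157). In controls it was lower by 1.04 (SE 0.24, limma adjusted p = 0.00148). Of 9 preadipocyte and fibroblast markers, 5 rose in mice labelled Pparg knockout, and 2 rose and 3 fell in controls. Red blood cell markers rose for 4 of 5 in mice labelled Pparg knockout and for 1 of 5 in controls. Macrophage markers rose for 3 of 6 and fell for 1 in either genotype. Of 5 endothelial markers, 2 rose and 1 fell in mice labelled Pparg knockout, and 1 rose and 3 fell in controls. The part of all these markers in the temperature differences was not tested.

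**Figure D4:**
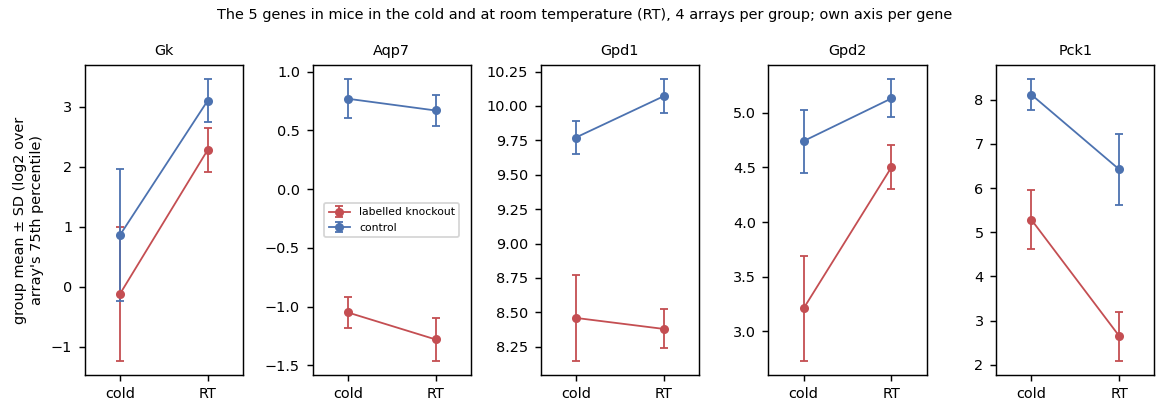
Group means ± SD (vertical axes, log2 over the array's 75th percentile, own scale per gene) in the cold and at room temperature (RT), 4 arrays per point, for mice labelled Pparg knockout and controls. Gk lies lower in the cold on both lines, Pck1 lies higher on both, and the gap for Gpd2 is 1.53 in the cold and 0.63 at room temperature.

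Whether the genotype difference itself changed with temperature was tested over all 16 mouse arrays, and none of the 5 genes passed in limma, where 13.4% of 14065 genes did. By an unadjusted p under 0.05, 1 of the 5 did, beside 29.5% of all genes. This was Gpd2, whose difference in the cold was 0.90 further down than at room temperature (SE 0.296, 95% interval −1.54 to −0.27, limma adjusted p = 0.0567). With slide as a block this gave adjusted p = 0.04, and over 30 alternatives the adjusted p lay between 0.0289 and 0.12. For Pck1 the change was 0.94 (SE 0.572, 95% interval −0.28 to 2.16), for Gpd1 0.38 (SE 0.196), for Aqp7 0.13 (SE 0.167) and for Gk −0.16 (SE 0.752, 95% interval −1.77 to 1.45). The interval of Gk is the widest of the 5 and bounds little in this fit. The fit had no slide term, so the slide difference of Gk in the cold, 1.89, remains in its SE. Within the slides the Gk difference was −0.96 and −1.01 in the cold, and −0.55 and −1.09 at room temperature. Over the 30 alternatives the adjusted p of the Gk change in limma lay between 0.33 and 0.999.

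Each gene had its own order of levels over the 8 groups. Gk stood highest in control mice at room temperature and lowest in Gyk knockdown cultures, and its neighbouring groups overlapped in the order except below the mice labelled Pparg knockout at room temperature and above the Gyk knockdown cultures. Pck1 ran over the widest range, with means of 8.11 in control mice in the cold and 0.12 in Pparg knockdown cultures. The cold samples labelled Pparg knockout, at 5.28 ± 0.667, overlapped the room temperature controls, at 6.42 ± 0.813 (SD, n = 4 each), for this gene. Aqp7 had its highest mean in culture, 1.82 ± 0.147 in Gyk control cultures, and its lowest in mice, −1.28 ± 0.181 in samples labelled Pparg knockout at room temperature (SD, n = 4 each). Gpd1 and Gpd2 were both highest in control mice at room temperature, at 10.07 ± 0.122 and 5.13 ± 0.173, and both lowest in Pparg knockdown cultures, at 6.60 ± 0.216 and 2.21 ± 0.281 (SD, n = 4 each). Culture and mouse arrays lay on different slides and days, so their levels are set side by side as description.

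Genes that neighbour these steps were counted by lists made from textbook roles, and their shares are read beside the shares of all genes called lower, given above, or higher. Called higher were 18.1% of all genes tested with the Pparg knockdown, 4.65% with the Gyk knockdown, and in samples labelled Pparg knockout 13.7% in the cold and 19.6% at room temperature. Triglyceride synthesis from glycerol phosphate, the step that uses the product, had 8 of 11 tested genes lower and 1 higher with the Pparg knockdown (median −0.84). Agpat2, which adds the next fatty acid to lysophosphatidic acid, fell by 1.90 (SE 0.144), the acyltransferase Gpat3 by 1.82 (SE 0.0996) and the phosphatidate phosphatase Lpin1 by 1.78 (SE 0.104). In the Gyk knockdown 2 of 11 fell, Agpat2 by 1.10 (SE 0.216) and Dgat1, which adds the last fatty acid, by 0.63 (SE 0.157; limma adjusted p = 0.0459). In samples labelled Pparg knockout 4 of 11 fell and 1 rose in the cold (median −0.62), and 5 fell and 3 rose at room temperature (median −0.16). Agpat2 fell by 2.71 (SE 0.345) in the cold and by 2.68 (SE 0.169) at room temperature. Dgat1 fell by 1.54 (SE 0.214) in the cold and by 1.26 (SE 0.113) at room temperature. Lpin3, another phosphatidate phosphatase, rose by 0.86 (SE 0.143) in the cold and by 1.65 (SE 0.166) at room temperature. The list thus held members that moved either way in mice.

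Glycerol release by lipolysis, the source of the substrate of glycerol kinase, had 4 of 6 tested genes lower with the Pparg knockdown (median −1.44). The hormone-sensitive lipase Lipe fell by 2.47 (SE 0.131), the monoglyceride lipase Mgll by 1.98 (SE 0.0746) and the lipid droplet coat protein Plin1, which is also on the adipocyte marker list, by 1.70 (SE 0.151). None of the 6 passed in the Gyk knockdown (median −0.37). In samples labelled Pparg knockout 5 of 6 fell and 1 rose in the cold (median −1.06), and 3 fell at room temperature (median −0.3). Lipe fell by 2.24 (SE 0.211) in the cold and by 0.99 (SE 0.138) at room temperature. Abhd5, the co-activator of adipose triglyceride lipase, fell by 1.31 (SE 0.198) in the cold and by 0.72 (SE 0.133) at room temperature.

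Of the genes beside Pck1 on the way to glyceroneogenesis, 10 of 14 were lower with the Pparg knockdown (median −0.67) and none higher. Pdk4, a kinase that holds back pyruvate dehydrogenase, fell by 1.44 (SE 0.0763), the mitochondrial aspartate-glutamate carrier Slc25a13 by 0.98 (SE 0.116) and pyruvate carboxylase, Pcx, by 0.94 (SE 0.0739). With the Gyk knockdown 2 of 14 fell, Pdk4 by 0.85 (SE 0.141) and the malate dehydrogenase Mdh1 by 0.58 (SE 0.129). In samples labelled Pparg knockout 4 of 13 fell and 1 rose in the cold (median −0.49), and 3 of 12 fell and 2 rose at room temperature (median −0.21). At room temperature the mitochondrial aspartate aminotransferase Got2 rose by 1.31 (SE 0.109) while its cytosolic counterpart Got1 fell by 1.26 (SE 0.188). The lactate dehydrogenase Ldha fell by 1.06 (SE 0.152) in the cold and by 1.08 (SE 0.156) at room temperature. Pck2, the mitochondrial form of the enzyme, rose by 1.34 in the cold (SE 0.345, limma adjusted p = 0.0182), with 4 of 4 arrays labelled Pparg knockout and 1 of 4 controls well above background.

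Glycolysis up to dihydroxyacetone phosphate, the substrate of Gpd1, had 4 of 11 genes lower and 1 higher with the Pparg knockdown (median −0.12). Hexokinase Hk2 fell by 1.13 (SE 0.084) and the insulin-regulated glucose transporter Slc2a4 by 1.04 (SE 0.109), while the glucose transporter Slc2a1 rose by 0.74 (SE 0.0704). With the Gyk knockdown 2 of 11 fell, the aldolase Aldoc by 0.59 (SE 0.135) and Slc2a4 by 0.55 (SE 0.0972). In samples labelled Pparg knockout 1 of 11 fell in the cold, and 4 fell and 3 rose at room temperature. Aldoc fell by 1.30 (SE 0.289) in the cold and rose by 1.64 (SE 0.134) at room temperature.

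Among 8 respiratory chain genes listed as partners of Gpd2, which feed electrons to ubiquinone or carry them onward from it, all 8 fell with the Pparg knockdown (median −0.66), among them the electron transfer flavoprotein dehydrogenase Etfdh by 1.09 (SE 0.0666) and cytochrome c, Cycs, by 0.98 (SE 0.0706). With the Gyk knockdown 3 of 8 fell, Etfdh by 0.80 (SE 0.167), the succinate dehydrogenase subunit Sdha by 0.59 (SE 0.123) and the complex III core protein Uqcrc2 by 0.45 (SE 0.1). In samples labelled Pparg knockout 4 of 8 fell and none rose in the cold, with Cycs lower by 1.22 (SE 0.136). At room temperature 4 of 8 fell and 2 rose, with Cycs lower by 0.89 (SE 0.0919) and Sdha higher by 0.79 (SE 0.0997).

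Relatives of the 5 genes moved less uniformly. Of 7 other glycerol channels and kinase relatives, 4 were tested with the Pparg knockdown and 1 fell, the aquaglyceroporin Aqp3. It was not well above background on any knockdown array, so its level has only a bound there, and it was at least 2.09-fold lower than in controls (limma adjusted p = 0.00228). This bound sets the control mean against, on each knockdown array, the higher of the probe's own signal and the lowest signal of any probe well above background. None of 4 passed with the Gyk knockdown or of 3 in the cold. At room temperature 3 of 4 fell and 1 rose in samples labelled Pparg knockout, with the glycerol kinase relatives Gk2 lower by 1.13 (SE 0.251) and Gk5 by 0.65 (SE 0.0992) and the dihydroxyacetone kinase Tkfc higher by 0.56 (SE 0.168). Gk2 is a close relative of Gk, and whether either probe also binds the other transcript was not tested. The phosphatase Pgp, which can hydrolyse glycerol phosphate, fell by 0.42 (SE 0.0782) with the Pparg knockdown, and in samples labelled Pparg knockout by 1.10 (SE 0.224) in the cold and by 0.90 (SE 0.0879) at room temperature. The Gpd1 relative Gpd1l passed in none of these comparisons.

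**Figure D5:**
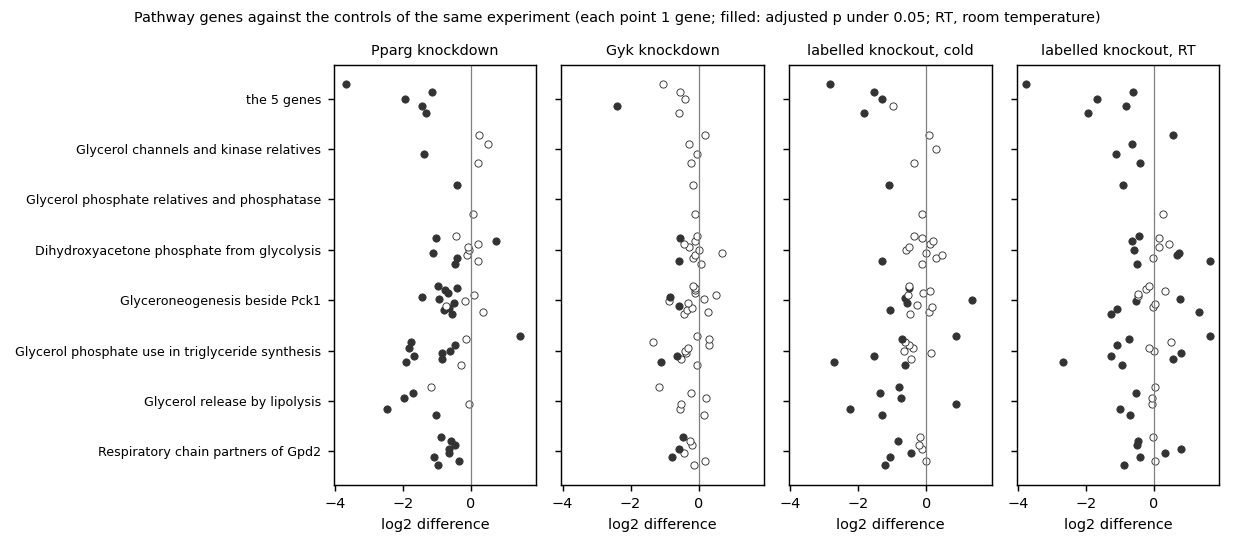
Difference of each tested gene from the controls of its experiment (horizontal axis, log2) by list, for both knockdowns in culture and for the labelled Pparg knockout in the cold and at room temperature (RT); filled points passed an adjusted p of 0.05. All 8 respiratory chain partners lie left of 0 with the Pparg knockdown, and in mice the triglyceride synthesis list runs from −2.68 to 1.65 at room temperature.

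Markers of other cells were set beside these counts. Of 6 tested macrophage markers, 6 rose in samples labelled Pparg knockout in the cold, where 13.7% of all genes did (summed level 25.7 to 40.3, against 15.4 to 18.6 in controls), and 5 of 9 preadipocyte and fibroblast markers rose with them (61.4 to 98.7, against 38.2 to 56.7 in controls). At room temperature 1 of 6 and 1 of 9 rose, beside 19.6% of all genes. In the Pparg knockdown cultures 4 of 8 tested preadipocyte and fibroblast markers rose, beside 18.1% of all genes (20.2 to 24.0, against 13.4 to 16.4 in controls), with Dpp4 not well above background in either group. Endothelial markers fell for 4 of 5 at room temperature in samples labelled Pparg knockout (summed level 10 to 12.3, against 14.2 to 19.9 in controls), and red blood cell markers for 4 of 5 (652 to 1020, against 943 to 2160 in controls). In the cold the median differences of these lists were 0.15 and 0.22. Hepatocyte markers summed to at most 0.199 in culture, and in mice at room temperature to 6.66 to 14 in samples labelled Pparg knockout and 3.66 to 16.1 in controls. Of 2 tested in the cold, 1 rose in samples labelled Pparg knockout, and over 4 tested at room temperature the median difference was −0.15. The part of these marker shifts in the results was not tested.

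The patterns most like each of the 5 genes were sought over the 32 arrays, after the mean of each experiment was subtracted, among 7966 genes. Gk lay closest to Timm8a1 (r = 0.869), Micos13 (r = 0.842) and Ppp1r14b (r = 0.832). Aqp7 lay closest to Clstn3 (r = 0.97), Spata22 (r = 0.969) and Slc24a3 (r = 0.965), and Gpd1, over 31 arrays, to Krt79 (r = 0.969), Dnajc15 (r = 0.969) and Mcrip2 (r = 0.963). Gpd2 lay closest to Grpel1 (r = 0.945), Mrps2 (r = 0.942) and Tmem135 (r = 0.939), and Pck1 to Apmap (r = 0.963), Bckdhb (r = 0.954) and Dgat1 (r = 0.95). Among the 5 genes, Gk stood apart by this measure, with r between 0.528 and 0.604 to the others, which had r between 0.812 and 0.945 to each other. Gk was the target of the Gyk knockdown and differed by 1.89 between the slides in the cold, and both remain in this measure. Their part in its lower r was not tested. These points share slides, arrays and the genotype contrasts, so the values are descriptions. After the mean of each group was subtracted instead, r between pairs of the 5 lay between −0.306, for Gk and Aqp7, and 0.488, for Gpd1 and Gpd2.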

How the data were processed

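The deposited scanner files hold, per the file headers, a linear intensity for each spot, background-subtracted and spatially detrended by Agilent Feature Extraction 10.7.3.1 (per the submitters' processing notes as well) and not normalized between arrays. Per the labels' protocols, 200 ng of total RNA was Cy3-labelled. The value table of the series repeats these deposited intensities (largest relative difference 0). From these, log2 intensities minus each array's 75th percentile were computed here, without 1377 control spots and spots flagged as outlying. The summed marker levels kept the flagged spots. Spots of a probe were averaged, and a gene with several probes was read from the one with the highest mean. RefSeq's gene annotation (GRCm38.p6) named 27234 of 39429 probes (69.1%). The grid names mm9, so it served for names only. Probes called well above background on fewer than 4 arrays of a fit were not tested. The tests were 2-sided limma fits (version 3.58.1, in R 4.3.3 with the data.table package, version 1.17.8), adjusted by Benjamini and Hochberg's method across the genes of a fit, at a threshold of 0.05. Single genes were also put through an exact 2-sided permutation test. Comparisons within an experiment used its own 8 arrays, and those across temperature or between knockdowns used 16. The code was tested on simulated data.

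The members, gene lists and tests were chosen with earlier results of these data known. Named pathway genes are the called ones with the 3 largest changes per list and comparison, and detected over background by 3 or more arrays of the higher group. Same-numbered knockdown and control arrays of the Pparg culture experiment shared a slide and deviated together from their group means (r from 0.703 to 0.767), as did arrays of other numbers on the same slide (r from 0.69 to 0.725), and 2 of 4 correlated best with their own number. All 4 pairs passed the limit set for pairing, but these values do not tell number from slide. Promoter windows were cut at the start site to leave out transcribed bases. Alternatives covered scaling, background correction, dim-probe filter, probe choice, flagged spots, blocks, samples in the fit and left-out arrays. With 4 arrays per group, their number limits the precision.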

Additional observations from a re-analysis of the deposited data

Results flagged for a closer look

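In the Gyk control cultures, Gk levels were 0.40, 0.38, 0.22 and 0.39, and the value of 0.22 on array 3 lay apart from the others by 0.865 of the group's range, past Dixon's limit for 4 values. About 1 in 20 groups is marked in this way by chance.

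The Pparg and Gyk knockdowns differed in their effect on 3 of the 5 genes by a test of the difference itself in limma. The difference between the effects was −2.62 for Pck1, −1.55 for Gpd1 and −0.77 for Aqp7 on the log2 scale, with the Pparg knockdown the further down in each. In that test 6.14% of 13118 genes were called lower.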

How the results depend on the processing

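The falls of Aqp7, Gpd1, Gpd2 and Pck1 in the 3 Pparg comparisons, and of Gk with the Pparg knockdown, kept their direction and their call under all 20 to 22 alternatives run for them. In the Gyk knockdown the number of the 5 genes called, 1 as reported, was 2 with quantile normalization, with a slide block or without arrays 3 and 4, 4 with all 32 arrays in the fit, 0 with a replicate block, and 1 to 3 when single arrays were left out. Gk there had adjusted p = 0.053 at −2.40 with the replicate block, and −3.19 and −1.60 within the slides. Gk at room temperature was −0.82 with adjusted p = 0.176 with all 32 arrays. Gk in the cold was −0.98 with a replicate block (adjusted p = 0.0033) or a slide block (adjusted p = 0.00102). In alternatives chosen after seeing the data, it was 0.28 without the arrays of high muscle marker level and −0.96 when slide was a block as well. The −0.96 rests on 1 array labelled Pparg knockout. In control mice 4 genes were called in the cold with the 75th percentile or the median taken over probes above background on all arrays. In the main fit of that comparison 25.1% of all genes tested were called lower and 41.6% higher. The share of all genes called was not computed for any alternative, so these counts do not set the 5 genes against other genes. The change of the genotype effect with temperature called 1 gene with all 32 arrays, a replicate block or a slide block, and 0 to 1 when single arrays were left out. For Gk this change ran from −0.51 to 0.23 with single arrays left out, with the sign turned at 0.23, 0.07, 0.14 and 0.17. It was 1.01 without the arrays of high muscle marker level, where the cold controls left lay on the second slide alone. The difference between both knockdown effects on Gk was 0.63 to 1.24 with single arrays left out and 1.71 without Gyk knockdown arrays 3 and 4. Gpd1 in the cold in mice labelled Pparg knockout turned to −0.16 with quantile normalization, −0.12 with normexp, −0.01 with the median scaling and −0.04 without 1 array (−0.04 to 0.18 over all single arrays left out), and Aqp7 in controls to −0.00 with the median scaling. The causes were not tested.

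Replicate numbers did not pair the arrays of the other 3 experiments (r from 0.054 to 0.116 in the Gyk experiment, from 0.041 to 0.499 in mice in the cold and from −0.094 to 0.023 at room temperature), and 3, 2 and 0 of 4 arrays there correlated best with their own number. Beside the values above, the replicate block moved Gpd2 to adjusted p = 0.0328 for the change with temperature and altered no call in the Pparg culture experiment. Normexp was run on median spot signals. The other probes of the 5 genes were not tested apart, since each had a single probe. All 5 probes were well above background throughout, so signal over background limits the pathway relatives more than the 5 genes.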
